A study of Homo sapiens with 8 samples.

Results

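ERBB3, ARMH4, CD248, MCEMP1, TSHZ3 and ZNF641 are 6 of the 64252 genes in the count tables of 2 T-cell acute lymphoblastic leukemia lines, and they moved in opposite directions in the 2 lines after knockdown of LDB1. They were chosen by the measured changes themselves. Each passed an adjusted p of 0.05 and a log2 fold change beyond 1 in each line, and the 2 signs were opposite, so their changes are described below without a test. Of the 14902 genes tested in both lines, 366 passed in both, 351 of them in the same direction and 15 (0.101%) in opposite directions, and the 6 genes are part of those 15.

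The study compared cells that carried a control shRNA (sh-NC) with cells that carried an shRNA against LDB1 (sh-LDB1), in 6T-CEM, which derives from CCRF-CEM, and in J.gamma1, which derives from Jurkat. The shRNAs were delivered by lentivirus in a pLKO.1 vector, infected cells were selected with puromycin, and harvest was 3 days after selection according to the methods. Each of the 4 groups had 2 libraries, and nothing states that these came from separate cultures, so p-values measure only the spread between these samples. All 4 groups carried a vector and had the selection, and the methods used here do not say which LDB1 shRNA the sequenced cells received.

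LDB1 is a scaffold protein without DNA-binding activity of its own that holds LIM-domain proteins and their DNA-binding partners together and joins enhancers to promoters. ERBB3 is a receptor of the epidermal growth factor receptor family that binds neuregulins and, having little kinase activity of its own, signals through a partner receptor to PI3K and AKT. CD248 (endosialin) is a membrane glycoprotein known from pericytes and fibroblasts, MCEMP1 is a membrane protein of mast cells and monocytes, TSHZ3 and ZNF641 are zinc finger proteins of the nucleus, and ARMH4 is a membrane protein tied to cytokine and mTORC2 signalling.

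Libraries held between 26160492 and 30604977 counts. Counts of LDB1, the targeted gene, went from 2777 and 2996 in the 6T-CEM controls to 1078 and 1000 in the knockdown libraries. The J.gamma1 pair went from 1909 and 1854 to 929 and 906. LDB1 thus fell in both lines, by a log2 fold change of -1.60 (SE 0.071, adjusted p = 1.02e-09) and -0.89 (SE 0.075, adjusted p = 3.68e-06, both by the quasi-likelihood test of edgeR, as are the other adjusted p-values unless DESeq2 is named), and the groups did not overlap. The fall in J.gamma1 was below the fold threshold, so LDB1 was called lower only in 6T-CEM. All 10 T cell markers examined, among them CD3D, CD3E, CD7 and LCK, had counts in every group.

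The 3 hairpins against LDB1 listed by the study each match 21 bases of LDB1 coding sequence on the minus strand of chromosome 10 (GRCh38). They are shown because the short stretch that pairs with the seed of the guide strand, in capitals, could also pair with other transcripts. The target of the first spans an exon junction.
sh-LDB1#1, chr10:102110959-102111076 with its intron: ggacagaggagtgTGACAATc
sh-LDB1#2, chr10:102110657-102110677: gctacttccgcagCATCTTTg
sh-LDB1#3, chr10:102109971-102109991: ggataaagacgtgGCACTTCa
The 7 capital letters of the first were found in the 3′ UTRs of ARMH4 and TSHZ3, 1 time each, those of the second in ERBB3, ARMH4 and TSHZ3, and those of the third in ARMH4. CD248, MCEMP1 and ZNF641 held none of the 3 stretches. Among 11444 genes tested in both lines with an annotated 3′ UTR, 10.3%, 21.3% and 9.38% held the first, the second and the third. Such a match is a description of letters, and whether it bears on the counts was not tested.

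In the counts, ERBB3, ARMH4, MCEMP1 and TSHZ3 rose in 6T-CEM and fell in J.gamma1, whereas CD248 and ZNF641 fell in 6T-CEM and rose in J.gamma1. Over all genes tested, 2.74% were called higher and 2.39% lower with sh-LDB1 in 6T-CEM, or 5.13% in either direction of 16059 genes, and 6.67% were called higher and 7.19% lower in J.gamma1, or 13.9% of 17215 genes. Since the members were picked for these calls, nothing is read from their count against those shares. In the fit of the difference between the lines, which rests on the same contrasts, 24.4% of 18552 genes passed an adjusted p of 0.05. All 6 members passed the filter on low counts in both lines. ERBB3 and ARMH4 passed it in 6T-CEM only through the sh-LDB1 libraries, and MCEMP1 reached the cutoff in 1 of the 2 sh-NC libraries there.

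ERBB3 (ENSG00000065361, chromosome 12, plus strand, 56076799 to 56103505 in GRCh38, with 28 exons in its canonical transcript) was the strongest of the 6 in J.gamma1. The control 6T-CEM libraries held 0 and 3 counts, and the knockdown ones 18 and 19. Control J.gamma1 libraries held 103 and 109, and the knockdown ones 21 and 14. ERBB3 transcripts were thus at the edge of detection in control 6T-CEM cells, appeared at a low level after the knockdown, and dropped to that same low level in J.gamma1. In normalized counts, scaled over the 8 libraries, the mean was 1.61 ± 2.28 (SD, n = 2) and 18.5 ± 0.962 in 6T-CEM, and 96.9 ± 4.31 and 17.7 ± 5.63 in J.gamma1. With sh-LDB1 the 2 lines overlapped. The fitted log2 fold change was 3.41 (SE 0.89) for 6T-CEM and -2.44 (SE 0.33) for J.gamma1, so J.gamma1 minus 6T-CEM came to -5.85 (SE 0.84). Only 3 counts stood on the control side in 6T-CEM. The ratio of summed counts there, 11.3, has a 95% exact binomial interval from 3.58 to 57.3, which covers counting error only. These counts also chose ERBB3, so the interval is no test of its rise. In these bulk libraries, fewer cells with a transcript and less of it per cell cannot be told apart.

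ARMH4 (ENSG00000139971, chromosome 14, minus strand, 57999735 to 58298139) gave the largest fitted rise of the 6 in 6T-CEM. Control 6T-CEM libraries held 1 and 0 counts, and the knockdown libraries 13 and 17. For J.gamma1 these were 84 and 101 in the controls, then 44 and 31. Detection in 6T-CEM again came with the knockdown, while J.gamma1 kept part of its level. Normalized means were 0.557 ± 0.787 (SD, n = 2) and 15.1 ± 3.04 in 6T-CEM, and 84.6 ± 11.4 and 38.0 ± 10.6 in J.gamma1. The fitted log2 fold change was 4.49 (SE 1.08) for 6T-CEM and -1.15 (SE 0.31) for J.gamma1. The ratio of summed counts in 6T-CEM, 27.5 on 1 control count, has an interval from 4.57 to 1120. It too covers counting error only and is no test, since these counts chose ARMH4. ARMH4 shares 253 exon bases with PSMA3-AS1, a noncoding gene annotated on the same strand, whose mean normalized count went from 988 to 1574 with the knockdown of 6T-CEM cells and from 967 to 1654 with that of J.gamma1 cells. PSMA3-AS1 was therefore higher with sh-LDB1 in both lines, unlike ARMH4, and how reads on the shared bases were assigned was not tested.

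MCEMP1 (ENSG00000183019, chromosome 19, plus strand, 7677088 to 7679829) went from 12 and 9 counts in control 6T-CEM libraries to 89 and 84 in the knockdown. Its J.gamma1 counts were 76 and 68 in the controls, then 29 and 30. The order of the lines turned over, so that the line with less MCEMP1 in the control had more of it in the knockdown. Normalized means were 11.5 ± 2.62 (SD, n = 2) and 86.6 ± 2.36 in 6T-CEM, and 65.8 ± 4.88 and 29.7 ± 0.363 in J.gamma1. The log2 fold change was 2.90 (SE 0.37) for 6T-CEM and -1.14 (SE 0.31) for J.gamma1, so J.gamma1 minus 6T-CEM came to -4.05 (SE 0.46).

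MCEMP1 shares 164 exon bases with a read-through gene (ENSG00000269711, 7678501 to 7682854) that also shares 613 exon bases with the neighbour TRAPPC5, a subunit of a vesicle tethering complex. The read-through gene held 334 counts in the first 6T-CEM sh-NC library and 0 in the other 7 libraries. TRAPPC5 held 420 counts in that library and between 669 and 823 in the others, and the sum of both there, 754, was among the sums of the other libraries. In the second 6T-CEM sh-NC library, where the read-through gene was at 0, MCEMP1 had 9 counts, against 12 in the first. How reads on the shared bases were assigned was not tested.

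TSHZ3 (ENSG00000121297, chromosome 19, minus strand, 31149979 to 31349436), a teashirt zinc finger protein, rose from 53 and 68 counts in control 6T-CEM libraries to 138 and 151. Its J.gamma1 counts were 272 and 342 in the controls and 127 and 120 after the knockdown. As with ERBB3, the knockdown brought the lines to nearly the same level from controls that were far apart. Normalized means were 66.0 ± 9.89 (SD, n = 2) and 145 ± 11.2 in 6T-CEM, and 281 ± 46.5 and 124.5 ± 9.49 in J.gamma1. The log2 fold change was 1.14 (SE 0.24) for 6T-CEM and -1.17 (SE 0.18) for J.gamma1. The J.gamma1 level was 4.25 times the 6T-CEM level with sh-NC, and with sh-LDB1 the 6T-CEM level was 1.16 times that of J.gamma1.

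CD248 (ENSG00000174807, chromosome 11, minus strand, 66314494 to 66317044, with 1 exon) went the other way. Its 6T-CEM counts were 70 and 63 in the controls, then 40 and 27. Its J.gamma1 counts were 66 and 53 in the controls, then 150 and 143. The lines began near each other and moved apart. Normalized means were 72.8 ± 7.29 (SD, n = 2) and 33.5 ± 8.75 in 6T-CEM, and 54.4 ± 8.16 and 148 ± 10.3 in J.gamma1, which gave a log2 fold change of -1.11 (SE 0.33) and 1.45 (SE 0.24). CD248 was 1.34 times as high in 6T-CEM as in J.gamma1 with sh-NC, and 4.41 times as high in J.gamma1 with sh-LDB1.

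ZNF641 (ENSG00000167528, chromosome 12, minus strand, 48337180 to 48351414), a zinc finger protein, carried the most counts of the 6 and so the smallest errors. Its 6T-CEM counts dropped from 508 and 473 to 206 and 214. Its J.gamma1 counts climbed from 288 and 371 to 836 and 705. The order of the lines turned over here too, in the direction opposite to MCEMP1. Normalized means were 537 ± 40.9 (SD, n = 2) and 210.4 ± 8.54 in 6T-CEM, and 301 ± 55.0 and 778 ± 121 in J.gamma1. The log2 fold change was -1.35 (SE 0.14) for 6T-CEM and 1.37 (SE 0.15) for J.gamma1, so the sizes were almost equal. ZNF641 was 1.78 times as high in 6T-CEM with sh-NC and 3.70 times as high in J.gamma1 with sh-LDB1.

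**Figure D1:**
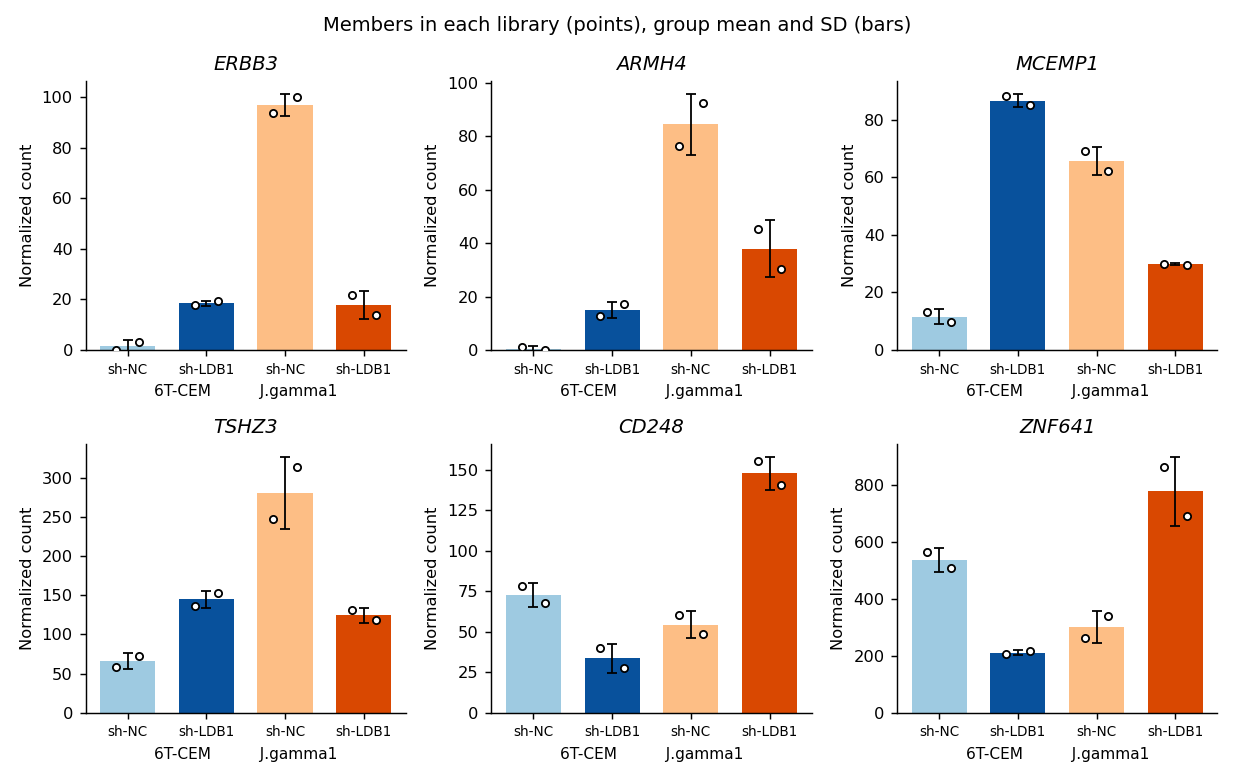
Normalized counts (vertical axes, linear from 0) of the 6 genes in 6T-CEM and J.gamma1 with sh-NC or sh-LDB1, with the 2 libraries of a group as points, the mean as a bar and the SD as an error bar. The upper 3 panels with TSHZ3 rise in 6T-CEM and fall in J.gamma1, while CD248 and ZNF641 do the reverse.

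Among the members, the changes nearest the threshold were those of CD248 and TSHZ3 in 6T-CEM, at -1.11 and 1.14. Just outside stood SEPTIN7-DT, with a log2 fold change of 1.41 (SE 0.51) for 6T-CEM and -0.98 (SE 0.32) for J.gamma1, and HDAC9, a histone deacetylase, with 1.09 (SE 0.25) and -0.97 (SE 0.10). With DESeq2, which the paper used, in place of edgeR, 2 of the 6, TSHZ3 and ZNF641, passed both thresholds in both lines. The directions of all 6 were the same, which is no support, since the same counts chose them. Without a fold threshold, 498 genes (3.34%) had an adjusted p under 0.05 in both lines with opposite signs.

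**Figure D2:**
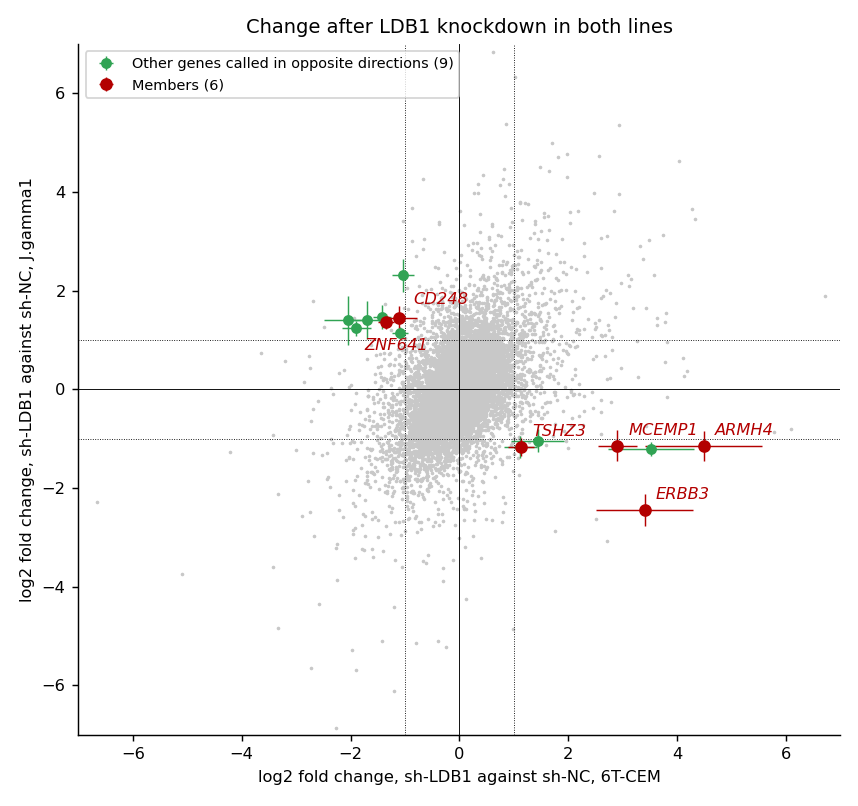
log2 fold change after the knockdown in 6T-CEM (horizontal) against J.gamma1 (vertical) for the genes tested in both lines, with 14877 drawn and 25 beyond the axes. The 6 members are red and the other 9 genes called in opposite directions green, both with SE bars, dotted lines mark a log2 fold change of 1, and the members lie at the upper left and lower right by the rule that chose them.

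Per length of the canonical transcript, as counts per kb and per 1e6 counts of the scaled library, levels in control 6T-CEM ran from ZNF641 at 2.57 ± 0.196 (SD, n = 2) through CD248 at 0.987 ± 0.0988, TSHZ3 at 0.451 ± 0.0675 and MCEMP1 at 0.313 ± 0.0712 to ERBB3 at 0.00992 ± 0.0140 and ARMH4 at 0.00296 ± 0.00419. TSHZ3 and MCEMP1 lay within their SDs of each other, as did ERBB3 and ARMH4. In control J.gamma1 the order was TSHZ3 at 1.92 ± 0.318, MCEMP1 at 1.79 ± 0.133, ZNF641 at 1.44 ± 0.263, CD248 at 0.737 ± 0.111, ERBB3 at 0.597 ± 0.0266 and ARMH4 at 0.450 ± 0.0605. TSHZ3 and MCEMP1 lay within their SDs of each other, as did MCEMP1 and ZNF641, whereas ZNF641 and CD248 did not. ZNF641 was near the middle of the tested genes in control 6T-CEM, with 49.8% of them below it, whereas ERBB3 and ARMH4 had no control library at the filter's cutoff there and so ranked near the bottom of the tested genes by construction. In control J.gamma1, between 23.5% and 42.4% of tested genes lay below each of the 6.

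The control level is also the base of the changes that chose these genes, so the order of the lines in the controls is given as a description only. With sh-LDB1 the lines stood closer together, on the log2 scale, for ERBB3, ARMH4, MCEMP1 and TSHZ3, and further apart for CD248 and ZNF641. The other 9 genes called in opposite directions were SPTB, CDKN1A and ENSG00000273833, which rose in 6T-CEM and fell in J.gamma1, and CD244, CTSW, EOMES, TNFRSF10A, ENSG00000267288 and ENSG00000278461, which did the reverse. SPTB, the erythroid beta-spectrin, went from 0 and 5 counts to 40 and 25 in the 6T-CEM libraries, and from 498 and 515 to 208 and 186 in those of J.gamma1. CDKN1A, the cell cycle inhibitor p21, had 9 and 15, then 41 and 30 counts in 6T-CEM and 152 and 177, then 79 and 65 in J.gamma1. These both resembled ERBB3 in being low in control 6T-CEM. EOMES, a T-box factor of cytotoxic lymphocytes, was higher in J.gamma1 with and without the knockdown, with a mean of 139 and 37.1 normalized counts in 6T-CEM and 295.5 and 692 in J.gamma1. Of these genes, 5 share exon bases with a gene on the other strand, SPTB 3408 with PLEKHG3, ENSG00000267288 1026 with HEXIM2, TNFRSF10A 266 with TNFRSF10A-DT and 224 with TNFRSF10A-AS1, CDKN1A 146 with DINOL and CTSW 2 with FIBP. TNFRSF10A-DT itself had a mean of 34.0 and 19.5 normalized counts in 6T-CEM and 5.96 and 39.2 in J.gamma1. Whether reads were counted by strand is not given in the sources used here, and these 5 are uncertain.

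**Figure D3:**
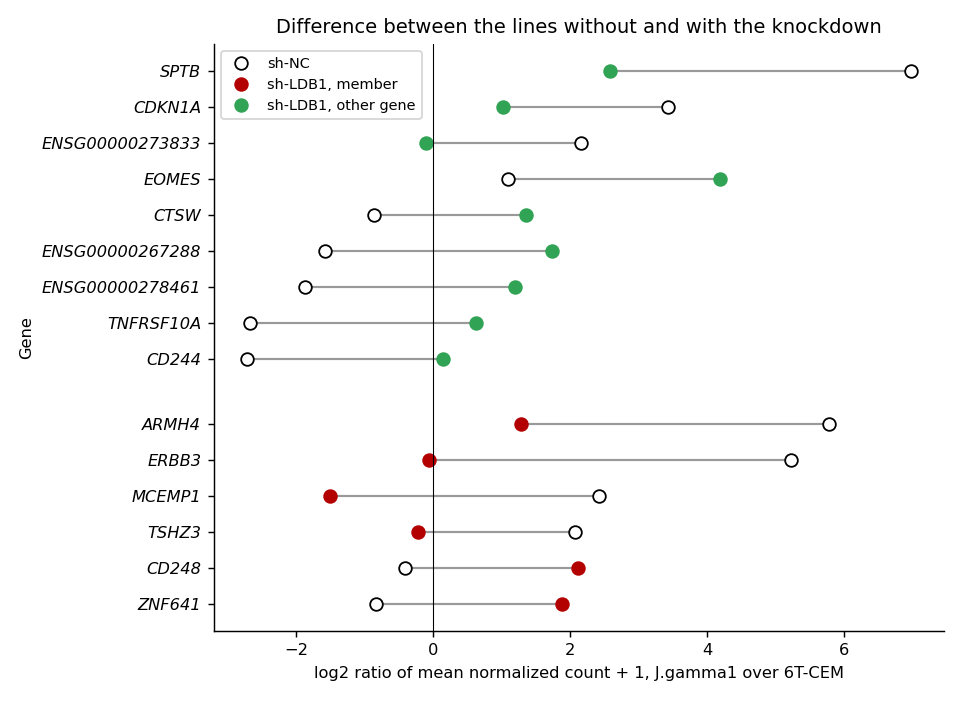
log2 ratio of the mean normalized count plus 1 of J.gamma1 over 6T-CEM (horizontal), without the knockdown (open) and with it (filled), for the 6 members below and the other 9 genes above. The ratios of ERBB3, ARMH4 and SPTB with sh-NC rest on at most 5 counts in a 6T-CEM library, and ERBB3 and TSHZ3 move close to 0, while CD248 and ZNF641 move from below 0 to above it.

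Genes related to the members, which the choice of members did not use, were examined as lists for ERBB3, ARMH4, CD248 and TSHZ3. Of these 74 genes, 50 passed the filter in 6T-CEM and 56 in J.gamma1, and 3 and 5 of them were called by edgeR, beside 5.13% and 13.9% of all genes. None of the 74 was called in opposite directions, beside 0.101% of all genes tested in both lines. The median log2 fold change was 0.08 and 0.04, beside medians near 0 over all genes tested.

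Of the other ERBB receptors only ERBB2, the usual partner of ERBB3, was tested. It had a mean of 21.4 ± 4.42 (SD, n = 2) and 36.1 ± 0.924 normalized counts in 6T-CEM and 123 ± 14.1 and 158 ± 16.4 in J.gamma1, and neither line passed, at an adjusted p of 0.194 and 0.146 from edgeR. EGFR and ERBB4 were below the filter in both lines, and so were 9 of the 11 ligands, NRG1 to NRG4 included. NRG1 and NRG3 had 0 counts in all 8 libraries. HBEGF, a ligand of EGFR and ERBB4, rose in both lines, with a log2 fold change of 1.57 (SE 0.16, adjusted p = 4.43e-06) and 1.00 (SE 0.16, adjusted p = 0.000336, edgeR). HBEGF stood at the fold threshold in J.gamma1, with 0.98 under DESeq2 and 0.90 without either the second sh-NC or the second sh-LDB1 library. Of 21 genes of receptor signalling, 20 were tested in each line and 1 was called, in J.gamma1. PIK3CA, the catalytic subunit of PI3K, had a log2 fold change of -0.52 (SE 0.085) for 6T-CEM and fell in J.gamma1, with -1.15 (SE 0.078, adjusted p = 7.8e-07, edgeR). Of 11 genes that restrain ERBB receptors, 9 were tested in 6T-CEM and all in J.gamma1, and none was called. PA2G4, which binds ERBB3 and also lies 1.03 kb from it, had a log2 fold change of -0.15 (SE 0.054) for 6T-CEM and 0.26 (SE 0.046) for J.gamma1, below the fold threshold.

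For ARMH4, the list held 11 genes of the IL-6 receptor chain gp130 and of mTORC2, of which 8 and 10 were tested. DEPTOR, an inhibitor of mTOR, was the 1 called gene. It fell in J.gamma1, from 58.5 to 20.4 normalized counts (log2 fold change -1.50, SE 0.43, adjusted p = 0.0140, edgeR), while in 6T-CEM it was below the filter at 2.23 and 10.9. The DEPTOR call was lost without the first J.gamma1 sh-LDB1 library (-0.98, adjusted p = 0.0814, edgeR) and in 1 fit to all 8 libraries (adjusted p = 0.146). For CD248, 4 of 8 relatives and matrix ligands were tested in each line. COL1A1, a collagen chain, rose in both, with 2.67 (SE 0.71, adjusted p = 0.01) in 6T-CEM and 1.11 (SE 0.17, adjusted p = 0.000249, edgeR) in J.gamma1. For TSHZ3, 7 and 8 of 9 relatives and partners were tested, and APBB1, an adaptor that binds teashirt proteins, rose alike in both lines by 1.14 (SE 0.11, adjusted p = 3.4e-06) and 1.15 (SE 0.17, adjusted p = 0.000207, edgeR). The COL1A1 call in 6T-CEM, on few counts, was lost without the second sh-NC library (adjusted p = 0.12) or the first sh-LDB1 library (adjusted p = 0.234, edgeR), and DESeq2 gave no adjusted p for it. TSHZ1 had 0.33 (SE 0.066) and 0.19 (SE 0.059), below the fold threshold, and TSHZ2 was below the filter.

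The 3 nearest genes on each side of a member that were tested in both lines made 36 neighbours, up to 1.43 Mb away. In 6T-CEM 0 were called higher and 2 lower, beside 2.74% and 2.39% of all genes tested. In J.gamma1 0 were called higher and 3 lower, beside 6.67% and 7.19%, all by edgeR. CNIH2, 29.2 kb from CD248, fell in both lines, with a log2 fold change of -1.68 (SE 0.45, adjusted p = 0.00963) and -1.91 (SE 0.18, adjusted p = 1.02e-05, edgeR). CCNE1, the gene of cyclin E1, 1.33 Mb from TSHZ3, fell in 6T-CEM, with -1.15 (SE 0.15, adjusted p = 4.59e-05, edgeR). In J.gamma1, SUOX, near ERBB3, fell with -1.28 (SE 0.41, adjusted p = 0.0243, edgeR) and PRR36, near MCEMP1, with -1.10 (SE 0.094, adjusted p = 3.99e-06, edgeR). The CNIH2 call in 6T-CEM was lost with DESeq2 (adjusted p = 0.08) and without the second sh-NC (0.0998) or the second sh-LDB1 library (0.0822), and that of SUOX with DESeq2 (0.114) and without the first J.gamma1 sh-NC (0.103) or sh-LDB1 library (0.144). No neighbour was called in opposite directions, beside 0.101% of all genes tested in both lines. Of the 36, 4 had an adjusted p under 0.05 in both lines with opposite signs, beside 3.34% of all genes.

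Markers of other cell types were set beside the members known from them. In J.gamma1 the 12 markers of monocytes and mast cells summed to between 277 and 321 normalized counts with sh-NC and between 131 and 162 with sh-LDB1, nearly all from KIT, at a mean of 281.5 and 121, while CD14 had 7.32 and 17.2, LYZ 0.911 and 4.60 and S100A9 0.911 and 3.57. In 6T-CEM, where MCEMP1 rose, the sum was between 112 and 115 with sh-NC and between 112 and 179 with sh-LDB1. S100A9 had 35.5 and 89.1 there, while CPA3 had 17.6 and 0.992 and HDC 7.61 and 0.992. FCN1, FCER1A and TPSAB1 were at 0 in every library. The 9 mesenchymal markers summed to between 1564 and 1571 with sh-NC and between 3542 and 3595 with sh-LDB1 in J.gamma1, where CD248 rose. Most of this was THY1, at a mean of 1328 and 3154. COL1A1 had 122.5 and 263.7 there, ACTA2 65.8 and 109 and COL1A2 0 and 12.4, while the pericyte marker PDGFRB had 48.9 and 27.0. In 6T-CEM the 9 markers summed to between 37.6 and 43.4 with sh-NC and between 26.3 and 42.7 with sh-LDB1. There COL1A1 had 3.86 and 24.9, while ACTA2 had 20.3 and 1.49 and PDGFRB 7.08 and 0.992. LUM was at 0 in every library, and PDGFRA, COL3A1 and DCN had at most 4 counts in any library. The 5 epithelial markers summed to between 25.8 and 71.3 in all libraries. Among them EPCAM had 6.08 and 22.5 in 6T-CEM, and KRT18 had 20.1 and 30.8 in J.gamma1. KRT8 went the other way, with 26.3 and 20.6 in 6T-CEM and 39.3 and 33.8 in J.gamma1. The part of any of these in the members' changes was not tested.

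By Pearson's r of log2 normalized counts over the 8 libraries, which share line and knockdown, the genes most like each member among 15420 were SEPTIN7-DT (r = 0.986) and ZNF670 (0.977) for ERBB3, NUF2 (0.993) and ENSG00000277111 (0.987) for ARMH4, and GTSE1 (0.972) and DLGAP5 (0.968) for MCEMP1. For TSHZ3, IRF2 (0.989) was among them, and they were for CD248 RIOK2 (0.986) and HNRNPH1 (0.985), and for ZNF641 WAC-AS1 (0.988) and GLB1L2 (0.985). Pearson's r takes no account of the size of a change, so these genes were picked for shape alone, and sizes differed. SEPTIN7-DT had a log2 fold change of 1.41 for 6T-CEM and -0.98 for J.gamma1, beside 3.41 and -2.44 for ERBB3. NUF2, a kinetochore protein, had a log2 fold change of 0.43 for 6T-CEM and -0.17 for J.gamma1, and GTSE1, a microtubule-binding protein of dividing cells, had 0.82 and -0.54.

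The 250 bases before a RefSeq start are shown for 3 promoters, 2 of genes that rose in 6T-CEM and 1 of ZNF641, from RefSeq on GRCh38.p14, since LDB1 complexes are known to reach DNA through GATA and E-box factors. The table matched 4 of the 6 members by symbol, with 2 starts for ZNF641. The ARMH4 start is that of the canonical transcript and lies inside the gene's full span given above. Capitals mark the motifs searched on both strands. The E-box was CAGNTG. The site of GATA factors was searched as GATAA. For ETS factors the letters were GGAAG, and RUNX factors were searched as TGTGGT, and no letters of different motifs overlapped in those printed. The 3 printed are the member stretches with a CAGNTG or GATAA match. The TSHZ3 stretch and the first ZNF641 start held neither and are not printed.
ARMH4, chr14:58152214-58152463, minus strand: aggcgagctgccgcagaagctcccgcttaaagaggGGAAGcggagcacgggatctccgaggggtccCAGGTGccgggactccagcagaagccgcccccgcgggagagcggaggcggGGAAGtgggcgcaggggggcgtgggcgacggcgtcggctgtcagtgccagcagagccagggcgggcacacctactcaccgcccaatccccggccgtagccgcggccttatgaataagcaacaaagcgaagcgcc
MCEMP1, chr19:7676840-7677089, plus strand: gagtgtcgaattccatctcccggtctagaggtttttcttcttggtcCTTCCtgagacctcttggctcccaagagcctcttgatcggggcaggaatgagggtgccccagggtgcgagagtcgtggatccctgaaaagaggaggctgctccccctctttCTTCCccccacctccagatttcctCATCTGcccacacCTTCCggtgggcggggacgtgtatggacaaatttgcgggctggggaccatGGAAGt
ZNF641, second start, chr12:48351247-48351496, minus strand: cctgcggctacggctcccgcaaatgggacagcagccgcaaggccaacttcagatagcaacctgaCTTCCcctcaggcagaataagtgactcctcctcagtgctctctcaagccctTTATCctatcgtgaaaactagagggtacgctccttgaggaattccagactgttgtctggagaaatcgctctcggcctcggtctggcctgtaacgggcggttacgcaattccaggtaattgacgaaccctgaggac
The ARMH4 and MCEMP1 stretches each held 1 CAGNTG, which 42.5% of 35116 promoter stretches of this length hold, and the TSHZ3 and ZNF641 stretches held none. GATAA was found in 1 of the 5 member stretches, the second ZNF641 start, beside 20.4% of all. GGAAG was in all 5, beside 65.1%, and TGTGGT in 0 of 5, beside 3855 of all. These are matches of letters in a short window and not binding sites.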

How the data were processed

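Sequencing covered 8 RNA libraries, from both lines with sh-NC or sh-LDB1. The authors aligned reads to hg38 with HISAT2 2.2.0, quantified genes with StringTie, and tested for changed genes with DESeq2. They deposited 2 tables, 1 per line, of whole-number counts per gene without normalization. The annotation release, the use of the strand and the step from coverage to counts are not given in the sources used here, so overlapping genes are uncertain. Here each line was fitted by itself with edgeR 4.0.16 (R 4.3.3, limma 3.58.1), with TMM normalization, filterByExpr, the robust quasi-likelihood test and p-values adjusted by Benjamini-Hochberg over every tested gene, and calls needed an adjusted p below 0.05 with a log2 fold change of over 1 in size. The difference between the lines came from 1 fit to all 8 libraries, in which 4524 of 18552 genes (24.4%) had an adjusted p under 0.05. Normalized counts were scaled by TMM over the 8 libraries, and likeness used log2 of the count plus 1 over genes with a mean of at least 20. The members and the gene lists were chosen with earlier results of these data known. Named genes are the members, the other genes called in opposite directions, LDB1, the 2 most alike genes of each member, called related and neighbouring genes, and the ERBB and TSHZ families, and any other name was chosen after its values were seen, and 1 gene of this rule is not reported here. Annotation came from GENCODE release 44. The steps were tested on simulated counts. DESeq2 1.42.0 and other filters, normalizations and fits were alternatives, as were fits without each library. Chi-square per degree of freedom between replicates was 7.04 to 11.7, so no 2 libraries agreed within sampling noise.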

Additional observations from a re-analysis of the deposited data

Results flagged for a closer look

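The change of LDB1 differed between the lines by 0.70 on the log2 scale (J.gamma1 minus 6T-CEM, SE 0.095, adjusted p = 0.000237, edgeR's quasi-likelihood test of the interaction), with LDB1 at 1041 ± 41.0 (SD, n = 2) normalized counts in 6T-CEM and 925 ± 49.9 in J.gamma1 after the knockdown, from 3154 ± 87.9 and 1720.0 ± 27.9. The levels of LDB1 after the knockdown were thus near each other, and the controls were not. Among the called related and neighbouring genes, PIK3CA was the 1 whose change differed between the lines, by -0.63 (SE 0.13, adjusted p = 0.00391, edgeR). The differences of the 6 members were used to choose them and are not counted here. Groups of 2 libraries are too small for a search for outlying libraries.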

How the results depend on the processing

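The 6 members gave 117 log2 fold changes over both lines under the alternatives, all in the direction of the main value. The same counts chose the members, whose groups did not overlap in either line, so the kept direction is no support. Of the 117 values, 3 moved by more than the spread between replicates. The log2 fold change in 6T-CEM of ERBB3 was 7.17 without the second sh-NC library, and that of ARMH4 was 6.89 without the first and 3.62 without the second. In the first and second of these the remaining control had 0 counts, so the value is no bound. Of the 6 members, 2 (TSHZ3 and ZNF641) passed in both lines with DESeq2, 5 without a filter on low counts (not ERBB3) and 4 with a mean of at least 20 counts (ERBB3 and ARMH4 were not tested in 6T-CEM). DESeq2 gave no adjusted p for ERBB3 and ARMH4 in 6T-CEM, and adjusted p = 0.135 for CD248 in 6T-CEM and 0.0769 for MCEMP1 in J.gamma1.

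Without 1 library, between 3 and 6 members passed. Without the first 6T-CEM sh-NC library 3 did (not ERBB3, CD248 and TSHZ3), without the second 4 (not ARMH4 and CD248), without the first sh-LDB1 library 5 (not ERBB3) and without the second 3 (not ERBB3 and CD248, and ARMH4 was not tested in 6T-CEM). Without the second J.gamma1 sh-NC library 5 passed (not TSHZ3) and without the second sh-LDB1 library 5 (not ARMH4). A lone library was assumed to vary like the other groups. Genes called in opposite directions numbered 15, and 7 with DESeq2, 28 in 1 fit to all 8 libraries, 498 without a fold threshold and 38 with no p threshold, with 13 to 19 when 1 library was left out. DESeq2 called 510 genes in 6T-CEM against 824. The fit to all 8 libraries called 3 related genes in J.gamma1 against 5. Low counts limit ERBB3 and ARMH4 in 6T-CEM most.

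Replicate numbers are shared by the groups, but same-numbered libraries did not deviate together (across genes, r = -0.0144 for 6T-CEM and -0.0376 for J.gamma1). With the replicate number as a block, 13 genes were called in opposite directions, all 6 members among them, 801 and 2240 genes were called in the 2 lines, and 4587 differed between them.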
